A study of Mus musculus with 11 samples.

Results

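The 10 genes described here encode the enzymes that hydroxylate and crosslink collagen: the lysyl oxidases *Lox*, *Loxl1*, *Loxl2*, *Loxl3* and *Loxl4*, the lysyl hydroxylases *Plod1*, *Plod2* and *Plod3*, and the catalytic subunits of prolyl 4-hydroxylase *P4ha1* and *P4ha2*. They were chosen by name and are 10 of 46603 genes in a table of read counts from whole liver, and all 10 had enough counts to be tested. The livers came from 11 male *ob/ob* mice (B6.V-Lepob/JRj), which lack leptin, fed the AMLN diet, high in fat with added fructose and cholesterol, from 5 to 6 weeks of age for 15 weeks and then throughout treatment. Mice with steatosis and fibrosis on biopsy were given vehicle (7 mice) or INT-767 at 10 mg/kg (4 mice) by mouth once daily for 8 weeks. INT-767 is a bile acid analog that activates the nuclear receptor FXR and the membrane receptor TGR5. All mice carried the mutation and ate the diet, so that no lean or chow-fed liver enters the comparison. Libraries held between 7966963 and 15295230 counts in vehicle mice and between 7381211 and 16022459 in INT-767-treated mice.

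Collagen is modified in steps. Prolyl 4-hydroxylases modify prolines of the nascent chain in the endoplasmic reticulum, which stabilises the triple helix, and lysyl hydroxylases modify lysines, some of which later carry crosslinks. Both families need iron, oxygen, 2-oxoglutarate and ascorbate. After secretion and removal of the propeptides, the copper-dependent lysyl oxidases oxidise lysines and hydroxylysines of collagen and elastin, which then join into crosslinks that stiffen the scar. In injured liver, hepatic stellate cells and the myofibroblasts derived from them are a main source of fibrillar collagen.

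INT-767-treated livers had lower levels of the lysyl oxidases *Loxl1* and *Loxl2*, and no hydroxylase passed the test. By edgeR's quasi-likelihood test with Benjamini-Hochberg adjustment over 13880 genes, 2 of the 10 enzymes were called lower at an adjusted *p* under 0.05 and 0 higher. Over all tested genes 9.72% were called, 4.68% lower and 5.04% higher. The log2 fold change was below 0 for 5 of 5 lysyl oxidases, 2 of 3 lysyl hydroxylases and 2 of 2 prolyl 4-hydroxylase subunits, against 50.6% of all tested genes. The median log2 fold change was -1.06 over the lysyl oxidases, -0.20 over the lysyl hydroxylases and -0.28 over the prolyl 4-hydroxylase subunits, and -0.01 over all tested genes. In whole liver, fewer cells of a type and less RNA per cell cannot be told apart.

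**Figure D1:**
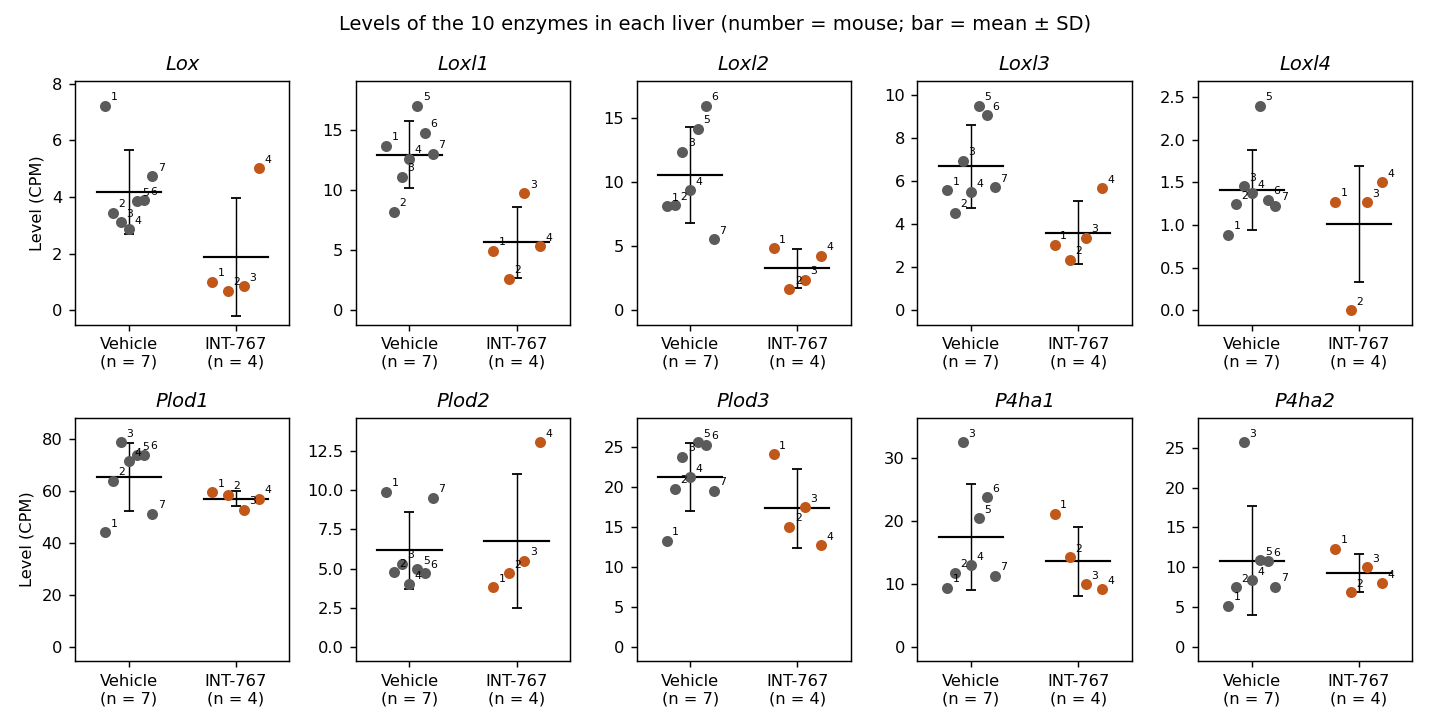
Level of each enzyme in CPM (counts scaled to library size with TMM factors) in 7 vehicle and 4 INT-767-treated livers, with points numbered by mouse and bars for mean and SD. *Loxl2* is the enzyme whose groups do not overlap, and the single high INT-767 point of *Lox* and *Plod2* is mouse 4.

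*Loxl2* encodes a secreted lysyl oxidase with scavenger receptor domains that acts on type IV as well as fibrillar collagen, and it had the largest fall of the 10. Its level in CPM, a gene's count scaled to library size with TMM factors, was 4.83, 1.66, 2.39 and 4.27 in INT-767-treated mice 1 to 4, and in vehicle mice it ran from 5.55 through a median of 9.36 to 15.98. Each INT-767-treated liver lay below each vehicle liver, which held in the same direction for 3.65% of all tested genes. The mean was 10.5 ± 3.74 CPM in vehicle (SD, n = 7) and 3.29 ± 1.51 in INT-767 (SD, n = 4). This was a log2 fold change of -1.63 ± 0.35 (SE), 0.323 times the vehicle level, with an adjusted *p* of 0.0168 by edgeR, and the exact Mann-Whitney *p* was 0.00606, the smallest that 330 assignments allow. Without INT-767-treated mouse 2, the lowest, the log2 fold change was -1.445 and the adjusted *p* by edgeR 0.0660. The gene lies on GRCm38 chromosome 14 from 69609068 to 69695834 on the plus strand, with 14 exons in its longest transcript. Of its 75-base windows 43.6% also occur in other annotated genes and 42.7% in the unprocessed pseudogene *Gm21451*, which had 8 counts over all livers. *Gm16867*, with 3.21% of the windows, had 1 count, so that the count of *Loxl2* is uncertain where reads were divided or dropped.

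*Loxl1* encodes the lysyl oxidase best known for crosslinking elastin. Its level was 4.96, 2.63, 9.71 and 5.32 CPM in INT-767-treated mice 1 to 4, and between 8.21 and 17.0 in vehicle mice with a median of 13.02. INT-767-treated mouse 3 lay inside the vehicle range and the other 3 lay below it. The mean was 12.9 ± 2.78 CPM (SD, n = 7) against 5.65 ± 2.96 (SD, n = 4). Expressed on the log2 scale the difference was -1.20 ± 0.30 (SE), 0.436 times vehicle, with an adjusted *p* of 0.0291 by edgeR and an exact Mann-Whitney *p* of 0.0121. The call was lost without any 1 of vehicle mice 4, 5 and 6 and INT-767-treated mice 2 and 4. In these fits the log2 fold change lay between -1.225 (without vehicle mouse 4) and -0.985 (without INT-767-treated mouse 2). The adjusted *p* by edgeR was then at the threshold of 0.05 without vehicle mouse 4 and between 0.0590 and 0.0934 without each of the others. *Loxl1* lies on chromosome 9 from 58287738 to 58313186 on the minus strand, with 7 exons.

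*Loxl3* and *Lox* had lower group means but were not called. *Loxl3*, a further secreted family member with scavenger receptor domains, measured 3.05, 2.35, 3.38 and 5.70 CPM in INT-767-treated mice 1 to 4, and between 4.545 and 9.52 in vehicle mice with a median of 5.72. INT-767-treated mouse 4 lay inside the vehicle range, next to its median. The difference was -0.87 ± 0.28 on the log2 scale (SE), with a 95% interval from -1.49 to -0.26, an adjusted *p* of 0.0683 by edgeR and an exact Mann-Whitney *p* of 0.0424. An exact *p* under 0.05 with a lower level was found for *Loxl1*, *Loxl2* and *Loxl3*, 3 of 10 enzymes, and for 11.5% of all tested genes. For *Loxl3* the exact Mann-Whitney *p* was 0.0667 without any 1 of vehicle mice 3, 5, 6 and 7 and 0.117 without any 1 of INT-767-treated mice 1, 2 and 3, which leaves 2 of 10. On the opposite strand *Htra2* overlaps 11.6% of the exon bases of *Loxl3*. Whether counting used strand is not given in the sources used here, so that reads from the overlap may not be separable, and *Htra2* had a log2 fold change of 0.15 (adjusted *p* = 0.502 by edgeR).

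*Lox*, the founding member of the family, had 1 INT-767-treated mouse far from the other 3. Its level was 1.02, 0.691 and 0.845 CPM in mice 1 to 3, and 5.02 in mouse 4, which was above 6 of the 7 vehicle mice. Vehicle mice ran from 2.87 through a median of 3.85 to 7.23 CPM. With all mice the log2 fold change was -1.06 ± 0.50 (SE; 95% interval -2.13 to 0.01), with an adjusted *p* of 0.155 by edgeR and an exact Mann-Whitney *p* of 0.164. Without INT-767-treated mouse 4 it was -2.24, with an adjusted *p* of 0.00489 by edgeR and an exact *p* of 0.0167, the smallest that 3 against 7 mice allow. Each mouse was left out in turn, and mouse 4 is named here because of its value.

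*Loxl4* was the scarcest enzyme in vehicle livers, while in INT-767-treated livers the median of *Lox*, 0.931 CPM, was below that of *Loxl4*, 1.269 CPM. Its level was 1.271, 0, 1.267 and 1.499 CPM in INT-767-treated mice 1 to 4, against 0.888 to 2.399 in vehicle mice with a median of 1.30. The 0 in mouse 2 allows up to 0.415 CPM, the worth of 3 counts, which covers counting error only. The groups overlapped, with a log2 fold change of -0.43 ± 0.50 (SE; 95% interval -1.51 to 0.65), an adjusted *p* of 0.548 by edgeR and an exact Mann-Whitney *p* of 0.788. The summed level of the 5 lysyl oxidases was 15.1, 7.32, 17.6 and 21.8 CPM in INT-767-treated mice 1 to 4 and between 25.7 and 47.0 in vehicle mice with a median of 35.0. Each INT-767-treated liver had a lower sum than each vehicle liver, while *Lox*, *Loxl1*, *Loxl3* and *Loxl4* each overlapped.

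**Figure D2:**
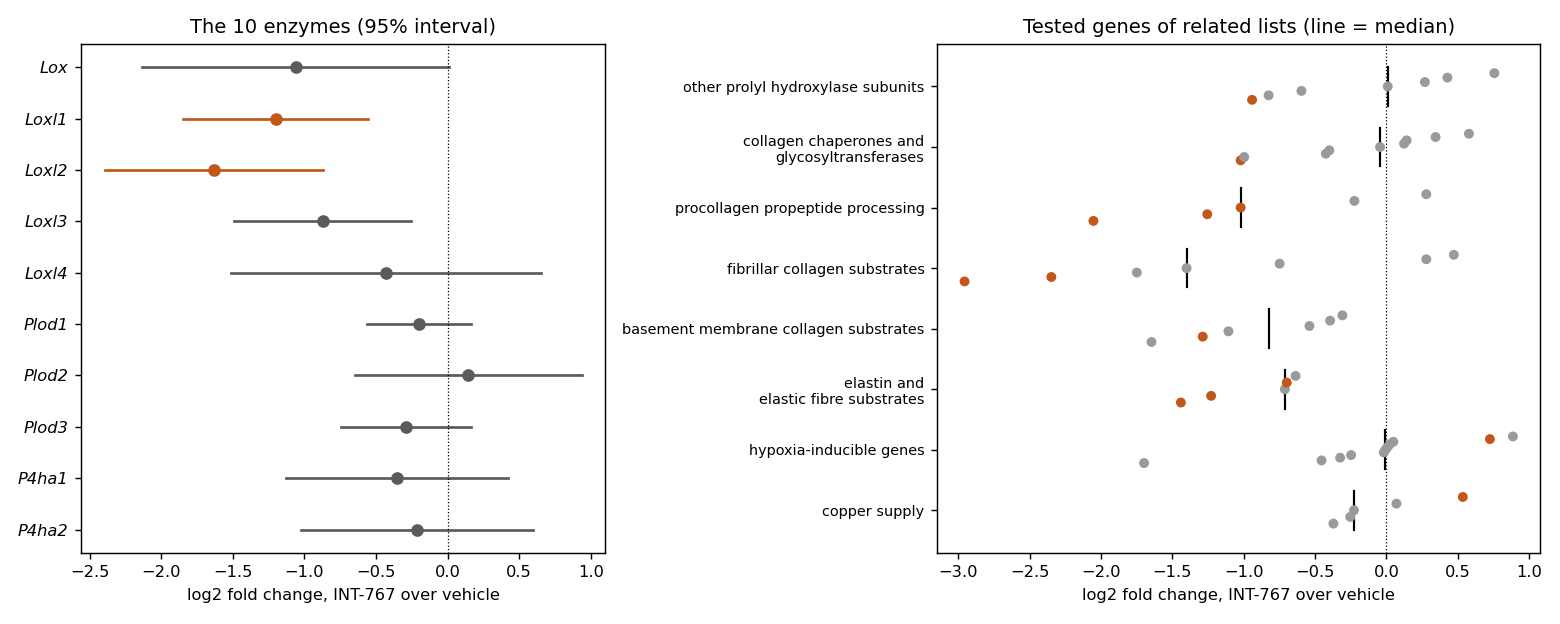
Log2 fold change of INT-767 over vehicle for the 10 enzymes with 95% intervals (left) and for the tested genes of related lists with list medians as lines (right), with an adjusted *p* under 0.05 in orange. The lysyl oxidases and the collagen and elastin substrates lie mostly below 0, and the intervals of the 5 hydroxylase genes include 0.

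Of the lysyl hydroxylases, which act on lysine inside the cell, 0 of 3 passed the test. *Plod1*, which acts on helical lysines, measured 59.6, 58.6, 52.9 and 57.1 CPM in INT-767-treated mice 1 to 4, and between 44.1 and 78.8 in vehicle mice with a median of 71.6. All 4 INT-767-treated livers lay inside the vehicle range and below its median. Its log2 fold change was -0.20 ± 0.17 (SE), with a 95% interval from -0.56 to 0.17, an adjusted *p* of 0.409 by edgeR and an exact Mann-Whitney *p* of 0.315. The lower bound of that interval lies above the fitted values of *Loxl1* and *Loxl2*, but these have error of their own. The 95% interval of *Loxl1*, from -1.847 to -0.552, overlaps that of *Plod1*, from -0.559 to 0.166.

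*Plod3*, which also transfers sugars onto hydroxylysine, measured 24.1, 15.1, 17.5 and 12.7 CPM in INT-767-treated mice 1 to 4 and between 13.3 and 25.6 in vehicle mice with a median of 21.2. The groups overlapped, with a log2 fold change of -0.29 ± 0.21 (SE; 95% interval -0.75 to 0.17) and an adjusted *p* of 0.334 by edgeR. *Znhit1*, on the opposite strand, overlaps 11.7% of its exon bases and had a log2 fold change of 0.36 (adjusted *p* = 0.0997 by edgeR). *Plod2*, the telopeptide lysyl hydroxylase, whose product shapes the crosslinks typical of scar tissue, measured 3.81, 4.70, 5.49 and 13.04 CPM in INT-767-treated mice 1 to 4. Vehicle mice ran from 3.99 through a median of 4.94 to 9.89 CPM. INT-767-treated mouse 4 was the highest of all 11 livers and the other 3 overlapped vehicle or lay just below it. The log2 fold change was 0.15 ± 0.36 (SE; 95% interval -0.65 to 0.94; adjusted *p* = 0.790 by edgeR), and without that mouse it was -0.42.

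The prolyl 4-hydroxylase subunits did not differ between the groups beyond their spread. In vehicle mice the SD was 48.4% of the mean for *P4ha1* and 62.9% for *P4ha2*. *P4ha1*, the subunit of the main form of the enzyme, measured 21.1, 14.2, 10.0 and 9.14 CPM in INT-767-treated mice 1 to 4, and between 9.38 and 32.4 in vehicle mice with a median of 12.98. *P4ha2*, the subunit of a second form, measured 12.3, 6.91, 10.0 and 8.02 CPM in INT-767-treated mice and between 5.20 and 25.7 in vehicle mice with a median of 8.36. For both genes the groups overlapped and the highest liver was vehicle mouse 3. The log2 fold change was -0.35 ± 0.36 (SE; 95% interval -1.13 to 0.42; adjusted *p* = 0.490 by edgeR) for *P4ha1* and -0.21 ± 0.37 (SE; 95% interval -1.02 to 0.60; adjusted *p* = 0.698 by edgeR) for *P4ha2*. Without vehicle mouse 3 the value of *P4ha2* was 0.15.

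Because *P4ha1* and *P4ha2* peaked in the same liver, their promoters are shown, from 250 bases before to 50 after the RefSeq transcript start (GRCm38.p6). The *P4ha1* window is chr10:59323046-59323345 and the *P4ha2* window chr11:54100674-54100973, both on the plus strand. Capitals mark ACGTG and GCGTG on either strand (CACGT and CACGC on the printed one), the cores of the element that hypoxia-inducible factors bind.

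P4ha1: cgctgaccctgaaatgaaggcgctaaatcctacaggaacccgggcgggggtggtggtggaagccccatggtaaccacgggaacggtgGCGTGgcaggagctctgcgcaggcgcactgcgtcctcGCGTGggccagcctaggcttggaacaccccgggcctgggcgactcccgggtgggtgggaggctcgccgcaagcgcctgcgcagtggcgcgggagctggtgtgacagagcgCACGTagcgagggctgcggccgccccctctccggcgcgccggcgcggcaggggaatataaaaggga

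P4ha2: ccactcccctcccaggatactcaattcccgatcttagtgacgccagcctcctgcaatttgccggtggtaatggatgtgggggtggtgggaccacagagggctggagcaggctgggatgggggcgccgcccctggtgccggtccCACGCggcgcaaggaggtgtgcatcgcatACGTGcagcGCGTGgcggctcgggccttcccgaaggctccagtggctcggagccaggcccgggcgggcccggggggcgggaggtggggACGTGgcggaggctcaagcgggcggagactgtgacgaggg

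Of 32851 RefSeq promoter windows of this length, 19.6% hold ACGTG and 32.4% hold GCGTG on either strand. These windows were not matched for GC content, which was 70.3% in the *P4ha1* window and in the *P4ha2* window. *P4ha1* holds ACGTG at -16, on the opposite strand, and GCGTG at -163 and -126. *P4ha2* holds ACGTG at -78 and 11 and GCGTG at -69 and, on the opposite strand, at -107. Promoter entries were matched for 5 of the 10 enzymes, the others being *Plod1*, *Plod3* and *Loxl4*. *Plod3* holds both cores, and *Plod1* and *Loxl4* hold GCGTG alone. Of these, *Plod1* was also highest in vehicle mouse 3, while *Plod3* and *Loxl4* were highest in vehicle mouse 5. The inverted repeat to which FXR with its partner RXR binds, searched as AGGTCA followed after 1 base by its reverse complement, was found in none of the 5 windows, on either strand, and in 0.00913% of all windows. A match to such letters is a description of the window and not a measured site.

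Different enzymes were highest in different livers. *Loxl1*, *Loxl2* and *Loxl3* were highest in vehicle mice 5 and 6, which also had the highest summed levels of fibrillar collagen genes (1285 and 1114 CPM), basement membrane collagen genes (316.5 and 304.9 CPM), endothelial markers (280 and 271 CPM) and, among vehicle mice, macrophage markers (660 and 727 CPM). In the INT-767 group summed fibrillar collagen was highest in mouse 4 at 369.7 CPM, as was *Loxl3*, while *Loxl1* was highest in mouse 3. *Loxl2* was highest in mouse 1 and lowest in mouse 2, as were *Col1a1* and *Col1a2*, at 28.7 and 39.5 CPM in mouse 1. *Lox* and *Plod2* were highest in vehicle mice 1 and 7 and INT-767-treated mouse 4. The same 3 livers had the highest *Spp1*, a marker of cholangiocytes, at 1863, 1414 and 1306 CPM against 320 to 776 in the other 8, and the highest *Krt8* at 957, 673 and 1131 CPM. They differed in genes of other kinds too, named after their values were seen. *Lum* was highest there, at 179, 118 and 271 CPM against 49.9 to 98.4 in the other 8. *Ogdh* was lowest there, at 53.9, 81.3 and 31.0 CPM against 91.2 to 227. *Col1a1* was 44.1 CPM in vehicle mouse 1 and 37.6 in vehicle mouse 7, the lowest of that group. In the INT-767 group it was 23.9 CPM in mouse 4, close to mice 1 and 3, and lowest in mouse 2, at 3.87 CPM, where *Lox* was also lowest. The part of cholangiocyte content in *Lox* and *Plod2* was not tested.

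Vehicle mouse 3 had the highest *P4ha1* and *P4ha2*, at 32.4 and 25.7 CPM, and the highest *Plod1*, at 78.8 CPM, near vehicle mice 5 and 6 at 73.8 and 74.0. It also had the highest level of 6 of 11 tested hypoxia-inducible genes among the 11 livers and of 8 of 11 among the vehicle livers. *Vegfa*, the vascular growth factor, measured 423 CPM there and between 106 and 211 in the other livers. *Egln3*, an oxygen-sensing prolyl hydroxylase that does not act on collagen, measured 93.0 CPM there and between 19.9 and 30.6 elsewhere. Both genes were named after their values were seen, and the state of that liver was not tested. Between the groups the 11 hypoxia-inducible genes had a median log2 fold change of -0.01, and *Pdk1*, a kinase that restrains pyruvate oxidation, was the one called, higher by 0.72 (adjusted *p* = 0.0103 by edgeR).

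**Figure D3:**
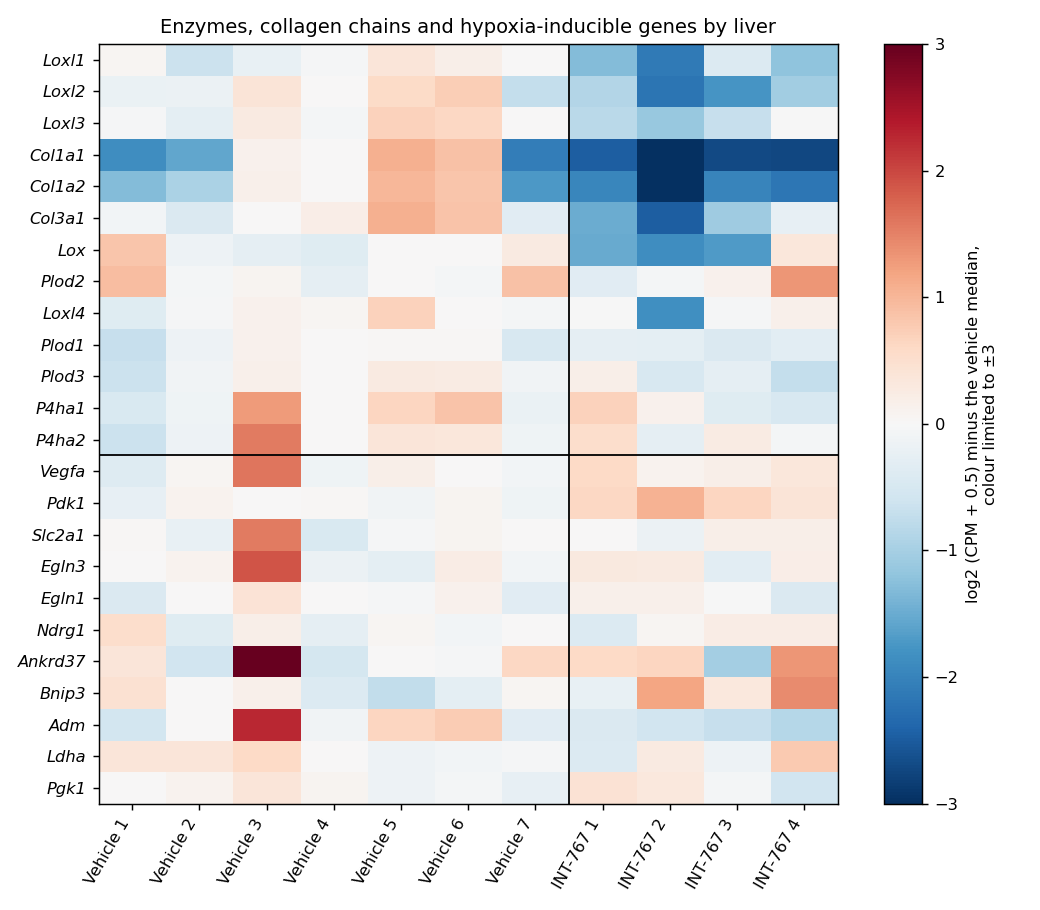
Log2 (CPM + 0.5) of each gene minus its vehicle median, for the enzymes and 3 collagen chains (above the line) and the 11 tested hypoxia-inducible genes (below), by liver, with colours limited to ±3. *P4ha1* and *P4ha2* peak in vehicle mouse 3 together with several hypoxia-inducible genes, and *Lox* and *Plod2* are high in vehicle mice 1 and 7 and INT-767 mouse 4.

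Levels of different enzymes were compared per kb of exon. In vehicle mice *Plod1* was the most abundant at 9.67 ± 1.92 CPM per kb (SD, n = 7), followed by *Plod3* at 4.70 ± 0.947, *P4ha1* at 4.24 ± 2.05, *Loxl1* at 3.92 ± 0.842, *Loxl2* at 1.95 ± 0.692 and *P4ha2* at 1.74 ± 1.09. *Loxl3* at 1.46 ± 0.417, *Plod2* at 1.14 ± 0.455, *Lox* at 0.871 ± 0.310 and *Loxl4* at 0.335 ± 0.112 CPM per kb followed. Neighbours in this order, which is by the mean, overlapped except *Plod1* with *Plod3* and *Lox* with *Loxl4*. *P4ha1* was above *Loxl1* in 3 of the 7 vehicle livers, and *P4ha2* above *Loxl3* in 3 of the 7. By the median *Loxl1*, at 3.95 CPM per kb, was above *P4ha1*, at 3.15. *Plod1* was the highest within each of the 7 vehicle livers, although *P4ha1* reached 7.89 CPM per kb in vehicle mouse 3. In INT-767-treated mice *Loxl2* was eighth by the mean, at 0.608 ± 0.279 CPM per kb (SD, n = 4), and the first 4 enzymes kept their order.

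**Figure D4:**
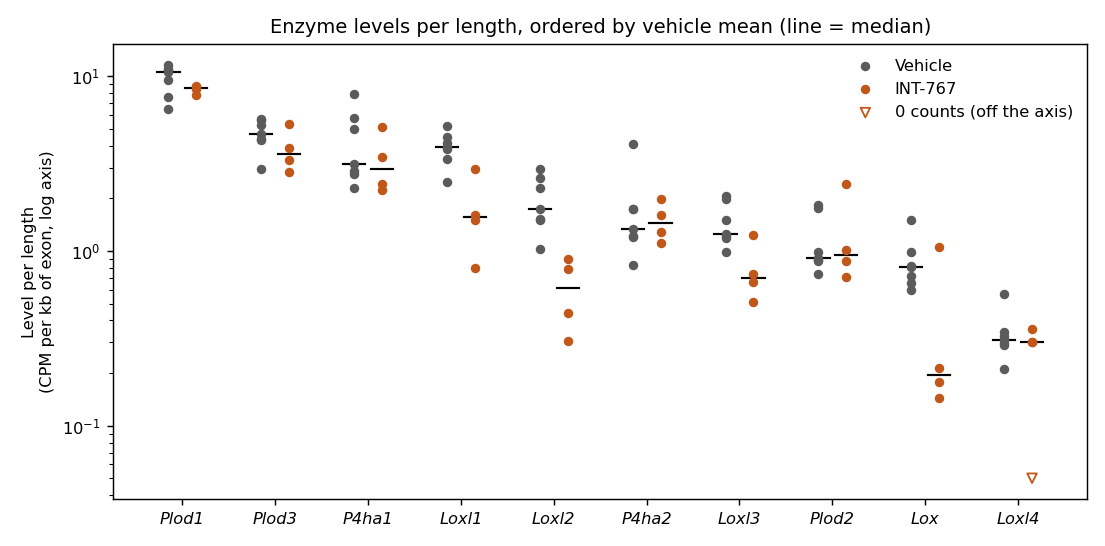
Level per length of each enzyme, in CPM per kb of exon on a log axis, in vehicle (grey) and INT-767-treated (orange) livers, ordered by the vehicle mean, with lines for medians and a triangle for the liver without a *Loxl4* count. *Plod1* is the most abundant in both groups, and *Loxl4* has the lowest median in vehicle and *Lox* in INT-767.

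The enzymes were also set against the collagen they act on, as counts per 1000 counts of *Col1a1*, *Col1a2* and *Col3a1* together. *Col1a1* fell by 2.96 and *Col1a2* by 2.35 on the log2 scale (adjusted *p* = 0.0297 and 0.0272 by edgeR), and *Col3a1* had a log2 fold change of -1.40 (adjusted *p* = 0.0516 by edgeR). Relative to collagen, *Plod1* was 393, 1039, 300 and 222 in INT-767-treated mice 1 to 4 and between 64.5 and 208 in vehicle mice with a median of 133. The groups did not overlap, with a log2 difference of 1.88 (95% interval 0.51 to 3.26) and an exact Mann-Whitney *p* of 0.00606. The other 4 hydroxylases had log2 differences between 1.65 and 1.88 with exact Mann-Whitney *p* between 0.0121 and 0.0424. All 5 were called higher by edgeR, as were 83.4% of all tested genes, whose median was 1.92, near the values of the hydroxylases. edgeR's *p* is too small in such a fit, since all genes share the noise of the reference.

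On the same scale the 5 lysyl oxidases had smaller log2 differences, between 0.19 and 1.11. *Loxl2* per 1000 collagen counts was 31.9, 29.4, 13.6 and 16.6 in INT-767-treated mice 1 to 4 and between 12.4 and 26.6 in vehicle mice with a median of 20.4. The groups overlapped, with INT-767-treated mice 1 and 2 above the vehicle range. The log2 difference was 0.21 (95% interval -1.14 to 1.57), with an exact Mann-Whitney *p* of 0.527. The differences were 0.19 for *Lox*, 0.54 for *Loxl1* and 1.11 for *Loxl4*, with exact Mann-Whitney *p* of 0.649, 0.230 and 0.230. *Loxl3* had a difference of 0.95 with an exact Mann-Whitney *p* of 0.0242. These intervals are wide, and the data do not show that the lysyl oxidases and collagen fell alike.

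**Figure D5:**
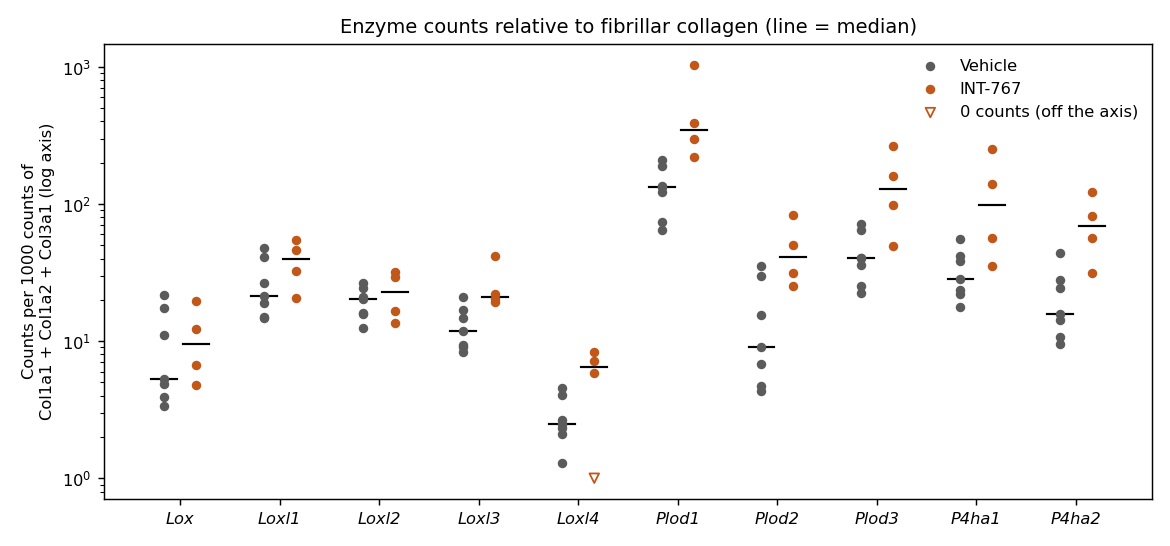
Counts of each enzyme per 1000 counts of *Col1a1*, *Col1a2* and *Col3a1* together, on a log axis, in vehicle (grey) and INT-767-treated (orange) livers, with lines for medians and a triangle for the liver without a *Loxl4* count. The groups overlap for *Lox*, *Loxl1* and *Loxl2* and are separate for *Plod1*.

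Each lysyl oxidase was also expressed per 1000 summed counts of the 5 hydroxylase genes, a comparison added after the values above were seen. *Plod1*, with a vehicle mean of 65.4 CPM, was the largest part of that sum. No hydroxylase had been called, so that this scale is not separate support for the main fit. *Loxl2* was 39.9, 16.7, 25.0 and 42.7 in INT-767-treated mice 1 to 4 and between 55.9 and 115 in vehicle mice with a median of 79.2, without overlap. The log2 difference was -1.44 (95% interval -2.12 to -0.76), with an adjusted *p* of 0.0213 by edgeR and an exact Mann-Whitney *p* of 0.00606. It was 1 of 5 lysyl oxidases called lower on this scale, against 1.05% of all tested genes, and the adjusted *p* by edgeR was 0.108 without INT-767-treated mouse 2 and 0.0517 without mouse 3. In this fit too edgeR's *p* is too small, since all genes share the noise of the reference. *Loxl1* had a log2 difference of -1.01 and *Loxl3* of -0.66, with exact Mann-Whitney *p* of 0.0242 and 0.0424 and adjusted *p* of 0.135 and 0.220 by edgeR. *Lox* at -0.95 and *Loxl4* at -0.24 had exact Mann-Whitney *p* of 0.164 and 1.

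Genes of the neighbouring steps were read from lists of known function. Of all tested genes 4.68% were called lower and 5.04% higher, and 3.65% were lower in INT-767 without overlap. Among 7 tested partners and relatives of the prolyl hydroxylases, *Crtap*, a subunit of the prolyl 3-hydroxylase complex, was the one called, with 7.82, 4.70, 10.1 and 4.95 CPM in INT-767-treated mice 1 to 4 against 11.4 to 14.6 in vehicle mice. It fell by 0.94 on the log2 scale without overlap (adjusted *p* = 0.0196 by edgeR). *P4hb*, the protein disulfide isomerase that forms the second subunit of prolyl 4-hydroxylase, had a log2 fold change of 0.27 (adjusted *p* = 0.291 by edgeR). Among 9 tested collagen chaperones and glycosyltransferases, *Sparc*, a matricellular collagen-binding protein, was called lower, by 1.02 (adjusted *p* = 0.0337 by edgeR), and 0 were called higher. The 2 medians were 0.01 and -0.05.

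Of 10 genes for propeptide removal 5 had enough counts to be tested, and 4 of these had a log2 fold change below 0. Of the 5, 3 were called lower and 0 higher, where 4.68% of all tested genes were called lower. *Pcolce*, which enhances C-propeptide cleavage, fell by 1.02, and the N-propeptidases *Adamts2* and *Adamts14* fell by 1.26 and 2.05 on the log2 scale (adjusted *p* = 0.0299, 0.0371 and 0.0103 by edgeR). For all 3 the treated livers lay below the vehicle livers without overlap, which held for 3.65% of all tested genes. These proteins act outside the hydroxylation steps, between secretion and crosslinking.

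*Col1a1* and *Col1a2* were the called genes among 7 tested fibrillar collagen genes, with a list median of -1.40. *Col4a1*, a chain of type IV collagen, fell by 1.29 (adjusted *p* = 0.0234 by edgeR) and was 1 of 6 basement membrane collagen genes called, and all 6 had a fold change below 0. All 5 elastic fibre genes had a log2 fold change below 0, with a median of -0.71. Of the 5, 3 were called lower and 0 higher, where 4.68% of all tested genes were called lower. The called genes were *Eln*, elastin itself, lower by 1.44, *Fbln5*, which guides elastin assembly and binds LOXL1, by 0.70, and *Fbn1*, fibrillin, by 1.23 on the log2 scale (adjusted *p* = 0.0283, 0.0259 and 0.0486 by edgeR).

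Of 8 extracellular partners of crosslinking, 6 had a log2 fold change below 0. Of the 8, 2 were called lower and 0 higher, where 4.68% of all tested genes were called lower. The called genes were *Fmod*, a collagen-binding proteoglycan, lower by 1.60, and *Thbs1*, thrombospondin, by 1.23 on the log2 scale (adjusted *p* = 0.0461 and 0.0122 by edgeR). Cofactor supply was read in the same way. Of 5 copper genes, the importer *Slc31a1* was called higher, by 0.54 (adjusted *p* = 0.0435 by edgeR), where 5.04% of all tested genes were. The log2 fold change was below 0 for 3 of the 5, and 0 were called lower. Of 7 genes for ascorbate, iron and 2-oxoglutarate supply 0 were called. Of 7 genes induced by TGF-beta, 5 had a log2 fold change below 0. *Ctgf* was called lower, by 0.99, and *Ltbp2* by 2.22 on the log2 scale (adjusted *p* = 0.0129 and 0.0339 by edgeR), and 0 were called higher.

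The drug response and the makeup of the livers were read in the same fit. The FXR targets *Nr0b2*, *Abcb11* and *Slc51b* rose by 1.54, 1.64 and 3.43 on the log2 scale, and *Cyp7a1* and *Cyp8b1*, enzymes of bile acid synthesis, fell by 1.62 and 4.60 (adjusted *p* by edgeR between 0.00234 and 0.0159). Hepatocyte markers were abundant, with *Alb* between 37280 and 79700 CPM, and 0 of 8 were called, with a median log2 fold change of 0.55 and 1 of 8 below 0. Their summed level was 99670, 100300, 82900 and 55850 CPM in INT-767-treated mice 1 to 4 and between 52610 and 69520 in vehicle mice, so that 3 of the 4 treated livers lay above vehicle. Of 6 pancreas markers 4 were at 0 in all livers and none was tested.

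Some markers of the cells that make matrix and of the other liver cells were called, where 9.72% of all tested genes were. Of 12 stellate cell and myofibroblast markers, *Pdgfrb*, a growth factor receptor of these cells, was called lower, by 1.31 on the log2 scale (adjusted *p* = 0.0302 by edgeR), and 0 were called higher. The log2 fold change was below 0 for 9 of the 12, with a median of -0.55. The most abundant, *Dcn*, had a log2 fold change of 0.22 (adjusted *p* = 0.441 by edgeR), and the summed level was 685 to 1122 CPM with INT-767 against 740 to 1032 with vehicle. Of 8 macrophage markers, *Cd68* and *Csf1r* fell by 1.16 and 1.14 (adjusted *p* = 0.00943 and 0.00498 by edgeR), while the most abundant, *Cd5l*, had a value of -0.03. The medians were -1.04 over the macrophage list, with 7 of 8 below 0, and -0.37 over the endothelial list, with 6 of 8 below 0. Of 8 endothelial markers *Vwf* fell by 1.31 (adjusted *p* = 0.0360 by edgeR), and *Stab2*, the most abundant, had a value of -0.97 (adjusted *p* = 0.110 by edgeR). None of 8 cholangiocyte and 5 tested mesothelial markers was called by edgeR, and *Spp1* and *Krt8*, the most abundant of each list, had values of -0.44 and 0.28. *Krt8* averaged 505 CPM in vehicle, where the other tested genes of the mesothelial list averaged 1.21 to 6.98 CPM. Whether *Krt8* stands for mesothelium was not tested. All 8 cholangiocyte markers had a value below 0, with a median of -0.65, against 2 of 5 mesothelial markers, with a median of 0.10. The part of cell content in the falls of *Loxl1* and *Loxl2* was not tested.

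The genes with the most similar profile were sought for the most abundant enzyme per length in each family, by the root mean square difference over 11 livers of log2 levels centred on the group and scaled to unit SD. *Ehf*, *Sema5a* and *Pygo1* were nearest to *Loxl1*, at 0.304, 0.344 and 0.347 SD. *Skiv2l*, *ENSMUSG00000101599* and *Anks1* were nearest to *Plod1*, at 0.250, 0.280 and 0.295 SD, and *Adamts1*, *Xrcc1* and *1700017B05Rik* to *P4ha1*, at 0.275, 0.335 and 0.368 SD. Of these 9 genes *Ehf* was called, with a log2 fold change of -1.28 (adjusted *p* = 0.0201 by edgeR).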

How the data were processed

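Liver RNA of 11 mice, 7 given vehicle and 4 given INT-767, was measured by bulk mRNA sequencing, grouped as labelled. The authors sequenced stranded mRNA libraries for 75 cycles and aligned them with STAR 2.5.2a to GRCm38 with Ensembl release 84 per the supplementary methods, while the submitters' processing notes name STAR 2.4.0. The authors deposited 1 table of raw counts per gene for 46603 genes. How reads were counted, and whether by strand, was not given in the sources used here.

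Enzymes, the 22 gene lists and tests were chosen with earlier results of these data known. The text names the 10 enzymes, up to 5 called genes of each list, the most abundant gene of each marker list, 3 collagen chains, the drug response genes and the nearest profiles of 3 enzymes, and genes outside this rule are said to be so or serve as neighbours, overlapping genes or parts of a list.

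Counts were scaled by TMM factors (0.843 to 1.14), kept by filterByExpr (minimum count of 10, minimum total count of 15) and tested with glmQLFit (robust) and glmQLFTest in edgeR 4.0.16 (R 4.3.3), with a treatment term alone. The Benjamini-Hochberg adjustment ran over 13880 genes. Exact two-sided Mann-Whitney tests enumerated 330 assignments, with a smallest *p* of 0.00606, or 0.0167 without 1 INT-767-treated mouse. Relative fits used the log of the summed reference counts as offset, with intervals on 9 degrees of freedom. CPM per kb used the exon union of GENCODE M21. No pair of libraries was a copy. The closest, vehicle mice 5 and 6, had a median chi-square per gene of 1.11, where 1 library drawn again would give 0.455. Alternatives were RLE, upper-quartile and library-size scaling, 2 other filters, a replicate block, a GC and length offset (lowess span 0.3), limma-voom (limma 3.58.1), DESeq2 1.42.0, a threshold of 0.01, all fibrillar collagen genes as reference and leaving out each mouse. The hydroxylase reference, and *Plod1* alone in its place, were added after seeing the data. All tools were tested on simulated data. Figures were drawn with matplotlib.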

Additional observations from a re-analysis of the deposited data

Results flagged for a closer look

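Among 20 groups of values (10 enzymes in vehicle and in INT-767), 5 held a mouse that stood apart from the rest of its group by Dixon's criterion, where chance gives about 1 in 20. *Lox* was 7.23 CPM in vehicle mouse 1, above the other 6 vehicle mice, and 5.02 CPM in INT-767-treated mouse 4, above the other 3. *Loxl4* was 2.399 CPM in vehicle mouse 5, and 0 in INT-767-treated mouse 2, where the other 3 were between 1.267 and 1.499 CPM. *P4ha2* was 25.7 CPM in vehicle mouse 3, above the other 6 vehicle mice. These values were kept in all comparisons unless a mouse is said to be left out.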

How the results depend on the processing

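In up to 22 alternatives, *Lox*, *Loxl1*, *Loxl2*, *Loxl3*, *Loxl4*, *Plod3* and *P4ha1* kept a log2 fold change below 0 in each one run. Of all genes 700 were called higher and 649 lower by edgeR. This was 1443 and 1368 by DESeq2, 331 and 1026 with library size only, 1068 and 826 with the GC and length offset, and 158 and 87 at a threshold of 0.01. With library size only the median of all genes shifted to -0.22, and *Plod2* was then -0.09. Leaving out 1 mouse gave 164 to 1906 genes higher and 110 to 1370 lower, the least without INT-767-treated mouse 2 and the most without vehicle mouse 1. Of the 10 enzymes 2 were called lower. This was 3 with library size only and by DESeq2, where *Loxl3* was added, 0 at a threshold of 0.01, and 0 to 3 when 1 mouse was left out, with 0 without INT-767-treated mouse 2 and 1 without any of vehicle mice 4, 5 and 6. The count of lysyl oxidases lower relative to the hydroxylases, 1, was 0 to 1 when 1 mouse was left out.

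Directions turned for small values. *Plod1* was 0.088 with the GC and length offset. When 1 mouse was left out, *P4ha2* ran from -0.381 to 0.15 (without vehicle mouse 3) and *Plod2* from -0.418 (without INT-767-treated mouse 4) to 0.358. The exact Mann-Whitney *p* of *Plod2*, whose rank sum turned, was 0.927 with RLE factors and between 0.3833 and 1 when 1 mouse was left out, and that of *Loxl4*, 0.833 without INT-767-treated mouse 2, between 0.3833 and 1. Relative to all fibrillar collagen genes *Lox* was -0.12 and *Loxl2* -0.19, and relative to the 3 chains, with 1 mouse left out, *Loxl2* ran from -0.02 (INT-767-treated mouse 1) to 0.398 and *Lox* from -0.373 (mouse 4) to 0.517, while *Loxl4* relative to hydroxylases was 0.12 without mouse 2. The cause was not tested.

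The replicate block used the mice's shared numbers, which did not pair them, since the same-number correlations were -0.72, 0.24, 0.20 and -0.52. With the block edgeR called 0 genes higher, 0 lower and 0 of the 10 enzymes, with 1347 genes at an unadjusted *p* under 0.05. The log2 fold changes of *Loxl1* and *Loxl2* were then -1.127 and -1.589, against -1.199 and -1.632 in the main fit. The GC offset and block together gave 1683 genes at an unadjusted *p* under 0.05 by edgeR and also called 0 in each. With both, *Plod1* was 0.056, *Plod2* -0.046 and *P4ha2* 0.041. Depth limits the low levels of *Lox* and *Loxl4*, since 3 counts are worth up to 0.422 CPM, in the shallowest library.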
